A study of Mus musculus with 6 samples.

Results

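This report concerns 34 genes of collagens, other extracellular matrix proteins and mesenchymal cells, chosen by symbol from the 51912 genes counted in each library. All 34 symbols were found, 31 had at least 1 read in some library, and Col6a2, Col6a3 and Bgn had none in any. RNA was sequenced from GFP+ cells of mouse embryos at stage E10.5. The cells came from the AGM (aorta, gonads and mesonephros), an embryonic tissue known as the earliest site of haematopoietic stem cells. The 2 groups were GFP+CD206+ cells (CD206pos) and GFP+CD206- cells (CD206neg), sorted by flow cytometry on GFP and on the mannose receptor CD206, the product of Mrc1, with 3 libraries each. All embryos were of the MacGreen strain (Csf1r-EGFP), in which the Csf1r promoter drives GFP, so that GFP marks macrophages but also other cells in which that promoter is active. The study used 3 litters, and each library pooled the cells of 3 to 5 AGM. The sample names number the libraries 1 to 3 in each population; a CD206pos and a CD206neg library with the same number are called litter 1, 2 or 3 here, although no label states outright that they came from the same litter. No AGM tissue, stroma or GFP-negative cells were among the 6 libraries.

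The extracellular matrix is built mainly by fibroblasts, smooth muscle and endothelial cells. Fibrillar collagens form the tensile fibres of connective tissue. Collagen IV, laminins and nidogens form the basement membrane, a thin sheet under endothelium and epithelium. Macrophages are better known for taking up and degrading matrix, although they make some matrix proteins themselves, fibronectin and thrombospondin 1 among them.

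Each library held between 16730846 and 18214283 reads in genes, so that 3 reads, the limit that a count of 0 allows, stood for 0.163 to 0.183 CPM (a library's reads in a gene relative to its total, scaled between libraries by the TMM method). Such limits cover counting error only, since amplified reads that carry no molecular identifier do not each stand for a separate molecule. Mrc1 was at 1458 to 1792 CPM in the CD206pos libraries and at 51.6 to 118.5 CPM in the CD206neg libraries, with no overlap. All 15 macrophage markers listed had reads in every library, at a summed 13933 to 18022 CPM in CD206pos and 8615 to 10521 CPM in CD206neg, so both populations had the defining transcripts of macrophages. Of the 15, 7 rose and 8 did not pass in edgeR, where 2.97% of all 12668 genes tested rose. The complement genes C1qa, C1qb and C1qc and the F4/80 gene Adgre1 had the smallest p values (adjusted p = 0.00084, 0.00088, 0.00085 and 0.0071, edgeR). The 34 genes together held between 0.0173% and 0.0343% of the reads in CD206pos libraries and between 0.0230% and 0.0496% in CD206neg libraries.

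The libraries of litter 3 stood apart for these genes in both populations. Of the 31 genes with a read, 26 had their highest scaled level in a litter 3 library, 7 in CD206pos and 19 in CD206neg. Counts out of these 31 include genes below the filter, and no share over all genes with a read was computed for them. Over all genes, 16184, 16007 and 17016 had a read in the CD206pos libraries of litters 1, 2 and 3. In the CD206neg libraries 16910, 17579 and 17745 did, so litter 3 had the most in each population. Of the 18 members that passed a filter on low counts, 13 (72.2%) were highest in litter 3, against 33.1% of all 12668 genes that passed it. In 18 of the 31 genes with a read the litter 3 library was the highest of its 3 in both populations. This held for 10 of the 18 members that passed the filter (55.6%), against 14.5% of all genes that passed it. Litter 2 led in both populations for 1 of the 31 genes and litter 1 for none. Of the 15 macrophage markers 12 were highest in litter 3, 11 of them in CD206pos, while of the 20 endothelial markers 2 were so. The litter 3 library held a median of 65.3% of a tested member's group sum in CD206pos and 59.1% in CD206neg. For the macrophage markers these medians were 37.4% and 37.0%, and for all genes tested 33.1% and 33.2%. Whatever else the libraries of a litter share cannot be told apart from the litter itself, and no statement below rests on litter 3 without its value in the other litters.

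**Figure D1:**
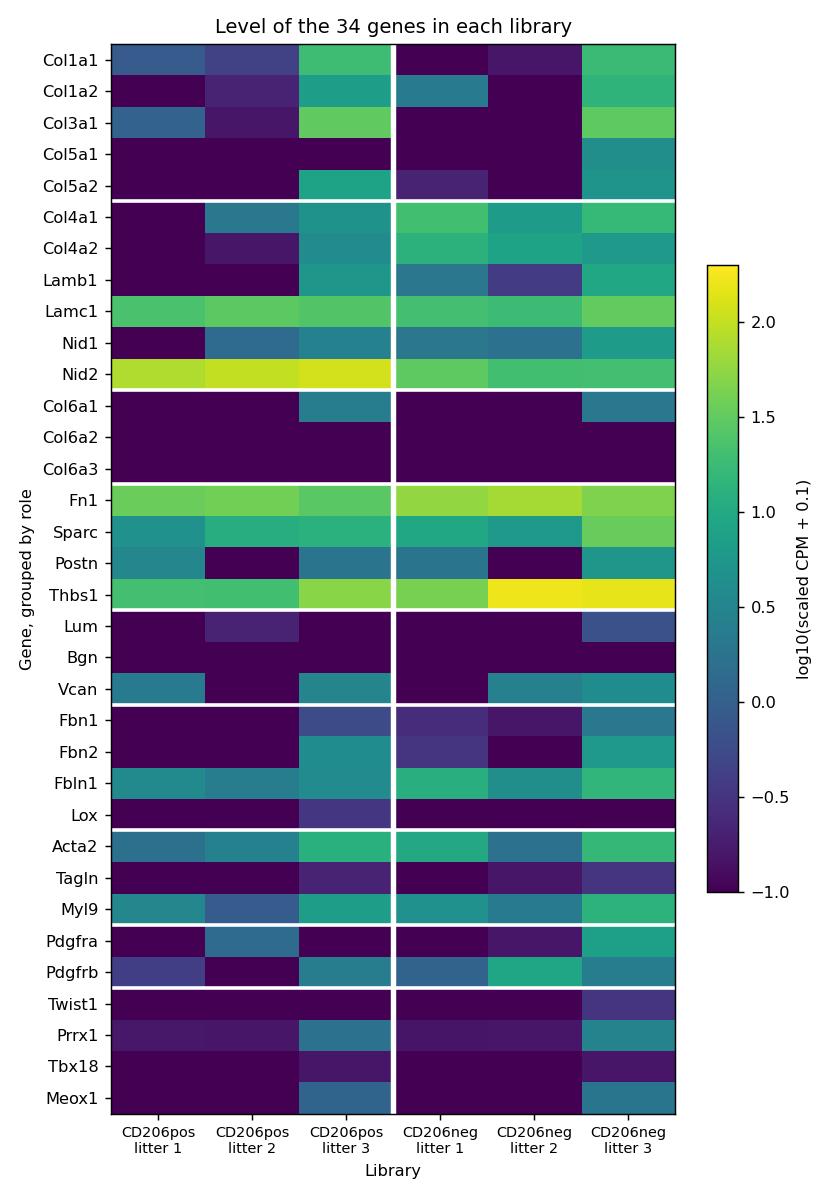
Level of each of the 34 genes (rows, grouped by role) in the 6 libraries (columns, CD206pos left and CD206neg right, litters 1 to 3 in each), as the log10 of scaled CPM plus 0.1. The darkest colour is 0 reads. The litter 3 columns are lit for most collagens in both populations, while Nid2, Fn1, Thbs1 and Lamc1 are present in all columns.

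The stretches before the start sites of some of these genes were searched for 3 short motifs. RefSeq (GRCm38.p6) held start sites for 22 of the 34 genes in 25 windows, and the 250 bases before each start were searched on both strands for CCAAT, for TATAAA and for the CArG box, the site of serum response factor in contractile genes. A CCAAT was found in 8 of the 25 windows and in 33.9% of all 32841 promoters of that length. TATAAA was found in 3 windows and in 12.4% of all promoters, and the CArG box in 1 window and in 1.47% of all. The 3 windows below belong to genes of different roles that were highest in litter 3 in both populations, and serve as examples with a match to each motif. They are written 5′ to 3′ on the gene's strand, up to the base before the gene's first exon in the deposited annotation, with motif matches in capitals. The capitals are TATAAA for Col3a1 (chr1:45311288-45311537, plus strand), CCAAT for Lamb1 (chr12:31265043-31265233, plus strand) and the CArG box for Myl9 (chr2:156775214-156775419, plus strand). A match describes the letters only.
Col3a1: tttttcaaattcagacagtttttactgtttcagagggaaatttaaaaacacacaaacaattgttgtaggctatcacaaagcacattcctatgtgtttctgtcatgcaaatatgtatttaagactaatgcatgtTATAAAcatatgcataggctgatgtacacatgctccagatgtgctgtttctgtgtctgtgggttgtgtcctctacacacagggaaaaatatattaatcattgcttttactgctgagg
Lamb1: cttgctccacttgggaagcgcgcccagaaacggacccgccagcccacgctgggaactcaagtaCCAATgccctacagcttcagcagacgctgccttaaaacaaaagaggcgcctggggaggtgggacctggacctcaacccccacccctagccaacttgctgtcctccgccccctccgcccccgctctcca
Myl9: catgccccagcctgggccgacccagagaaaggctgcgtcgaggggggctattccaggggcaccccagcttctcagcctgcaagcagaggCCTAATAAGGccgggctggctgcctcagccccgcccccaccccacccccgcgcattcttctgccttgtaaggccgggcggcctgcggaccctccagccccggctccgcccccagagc

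The study compared CD206pos with CD206neg cells, and the first question for these genes was which of them differed between the populations beyond the spread of the libraries. Nid2, which encodes the basement membrane linker nidogen 2, rose 4.20-fold in CD206pos. Among the rest, Thbs1 averaged 30.5 CPM in CD206pos and 120.2 CPM in CD206neg, and Fn1 34.2 CPM in CD206pos and 58.5 CPM in CD206neg, and neither passed the test. Col1a1 and Col3a1 were high in litter 3 and under 1 CPM elsewhere in both populations. Of the 34 genes, 18 passed the filter on low counts, which asks for about 10 reads in 3 libraries and so cannot pass a gene with reads in the 2 libraries of litter 3 alone. In edgeR's quasi-likelihood test with Benjamini-Hochberg adjustment over all 12668 genes, 1 of the 18 rose, none fell and 17 did not pass. Over all genes tested 4.87% were called, 2.97% as higher and 1.9% as lower in CD206pos. At an unadjusted p under 0.05, 1 of the 18 was higher (Nid2) and 4 were lower (Thbs1, Fn1, Fbln1 and Col4a1), where this held for 17.6% of all genes tested, 9.53% as higher and 8.05% as lower. DESeq2 called Nid2 higher and 3 lower (Thbs1, Fn1 and Fbln1), where it called 9.83% of all its genes, 5.2% as higher and 4.63% as lower. With limma-voom Nid2 was higher and none was lower, where 6.43% of all genes were called, 4.19% as higher and 2.23% as lower. The median log2 fold change of the 18 was -0.84, with 4 above 0 and 14 below, where the median of all genes tested was 0.00. The libraries of the groups did not overlap for 5 of the 18, Nid2 as the higher one in CD206pos and Col4a1, Col4a2, Fn1 and Fbln1 as lower. Over all genes tested 12.8% were so as higher and 11.8% as lower. With library totals as the only scaling, the calls over all genes split into 273 higher and 284 lower, against 376 higher and 241 lower with TMM.

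**Figure D2:**
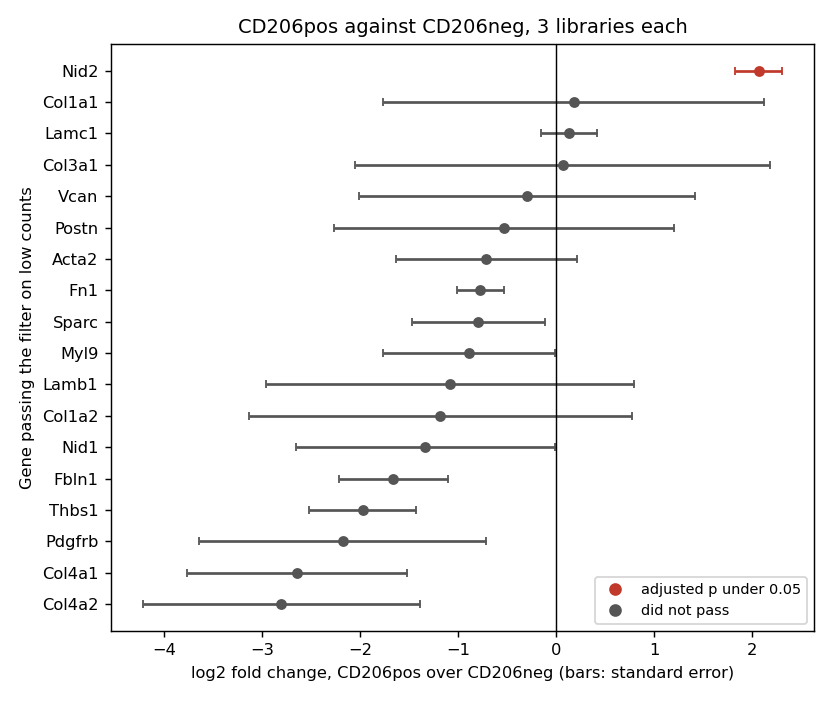
Log2 fold change of CD206pos over CD206neg for the 18 genes that passed the filter on low counts (points, with standard errors as bars). Nid2 at 2.07 is the gene past the threshold, and the standard errors of Col1a1, Col1a2, Col3a1 and Lamb1 are each near 2 log2 units.

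The basement membrane genes held both the gene that rose and the lowest fold changes. Nid2 (ENSMUSG00000021806.3) lies on the plus strand of chromosome 14 in GRCm38, from 19751257 to 19811787. Its level was 80.8, 98.2 and 117.6 CPM in the CD206pos libraries of litters 1, 2 and 3, against 30.01, 19.9 and 20.7 CPM in the CD206neg libraries. The groups did not overlap, and the lowest CD206pos library stood above the highest CD206neg library. Nid2 averaged 98.9 ± 18.4 CPM in CD206pos and 23.5 ± 5.63 CPM in CD206neg (SD, n = 3 each). The log2 fold change was 2.07 ± 0.24 (SE; adjusted p = 0.0027, edgeR). It was called with each single library left out. With both libraries of litter 2 left out the log2 fold change was 1.93 (adjusted p = 0.12, edgeR), and without litter 3 it was 1.81 (adjusted p = 0.056). Exons of Rtraf on the other strand cover 7.90% of the exon bases of Nid2. The counting command in the file headers sets no option for strand or for overlapping genes, and by the counter's default such reads go to neither gene.

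Nid1, the paralogue of Nid2, did not share this pattern. It was at 0, 1.32 and 2.72 CPM in the CD206pos libraries of litters 1, 2 and 3, against 1.91, 1.68 and 6.65 CPM in the CD206neg libraries. Its groups overlapped, and its log2 fold change of -1.34 ± 1.32 (SE) did not pass (adjusted p = 0.70, edgeR). Lamc1, the laminin gamma 1 chain found in most laminins, was even across all 6 libraries. It had 22.7, 29.7 and 25.0 CPM in CD206pos libraries, against 20.2, 18.4 and 32.0 CPM in CD206neg libraries, with overlapping groups and a log2 fold change of 0.13 ± 0.29 (SE; adjusted p = 0.89, edgeR). Lamb1, the beta 1 chain that assembles with gamma 1, had 0, 0 and 94 reads in CD206pos libraries, against 35, 5 and 166 reads in CD206neg libraries. The litter 3 library was the highest for Lamb1 in each population, and its groups overlapped.

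Col4a1 and Col4a2 encode the 2 chains of the commonest collagen IV and lie head to head on chromosome 8. Col4a1 (11198423 to 11312826, minus strand) had levels of 0, 2.00 and 4.74 CPM in the CD206pos libraries of litters 1, 2 and 3, against 20.04, 6.37 and 16.1 CPM in the CD206neg libraries. Col4a2 (11312805 to 11449287, plus strand) had 0, 0.0573 and 3.82 CPM in CD206pos libraries, against 12.96, 8.22 and 6.09 CPM in CD206neg libraries. For both genes every CD206pos library lay below every CD206neg library, and the CD206pos library of litter 3 was the highest of its group. The log2 fold changes were -2.65 ± 1.12 (SE; adjusted p = 0.27) for Col4a1 and -2.81 ± 1.41 (SE; adjusted p = 0.36) for Col4a2, and neither passed in edgeR. Without CD206pos replicate 3 the Col4a2 log2 fold change was -7.98 (adjusted p = 0.012, edgeR), and without both libraries of litter 3 it was -8.20 (adjusted p = 0.027). In these fits the CD206pos libraries left held 0 and 1 reads of Col4a2, so the values lie near the floor. Over all 9 runs with a library or litter left out, it ran from -8.20 to -1.88 (adjusted p from 0.012 to 0.73, edgeR). No other of these runs passed for Col4a2. The first exons of the pair overlap by 22 bases. Endothelium makes collagen IV, and 20 endothelial markers summed to 109 to 153 CPM in CD206pos libraries and 299.8 to 507 CPM in CD206neg libraries. Of 17 endothelial markers tested 4 fell (Flt1, Tie1, Sox17 and Erg) and 13 did not pass in edgeR. Sox17, without a CD206pos read, passed the filter through CD206neg alone and could be called only as lower. The same holds for any other tested marker without CD206pos reads, in this count and in those that follow. At an unadjusted p under 0.05, 11 were lower, and DESeq2 called 11 lower and limma-voom 4. The groups did not overlap for 15, as lower in CD206pos. Over all genes tested, edgeR called 1.9% lower, and 8.05% were lower at an unadjusted p under 0.05. DESeq2 called 4.63% of its genes lower and limma-voom 2.23%, and the groups did not overlap for 11.8%, as lower. A read was found for 9, 9 and 15 of the 20 in the CD206pos libraries of litters 1, 2 and 3, against 20, 20 and 19 in the CD206neg libraries, and Sox17, Sox18, Ptprb, Robo4 and Clec14a were at 0 in every CD206pos library. The part of endothelial transcripts in the collagen IV values was not tested, and in such bulk libraries fewer cells of a type and less RNA per cell cannot be told apart.

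The matrix glycoproteins ranged widely in level. Thbs1 encodes thrombospondin 1, a protein of platelet granules and macrophages that binds CD36 and activates latent TGF-beta. It was at 20.5, 19.8 and 51.3 CPM in the CD206pos libraries of litters 1, 2 and 3, against 42.4, 165.6 and 152.5 CPM in the CD206neg libraries. The highest CD206pos library, of litter 3, lay above the lowest CD206neg library, of litter 1, so the groups overlapped, while CD206pos was the lower one of each pair with the same number. The log2 fold change of -1.98 ± 0.55 (SE) had an adjusted p of 0.089 (edgeR). Without CD206neg replicate 1 it was -2.38 (adjusted p = 0.041, edgeR). No other of the 9 runs with a library or litter left out passed for Thbs1, with adjusted p values up to 0.55 (edgeR). Of 12 megakaryocyte and platelet markers 5 were tested, and 1 fell and 4 did not pass in edgeR. At an unadjusted p under 0.05, 3 were lower, and DESeq2 and limma-voom called 2 lower each. Over all genes tested, edgeR called 1.9% lower, and 8.05% were lower at an unadjusted p under 0.05. DESeq2 called 4.63% of its genes lower and limma-voom 2.23%. The 12 genes summed to 4.52 to 15.5 CPM in CD206pos libraries and 65.9 to 93.3 CPM in CD206neg libraries. Among these, 3, 2 and 7 had a read in the CD206pos libraries, against 8, 7 and 8 in the CD206neg libraries. Their part in the Thbs1 values was not tested.

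Fn1, encoding fibronectin, was at 34.5, 40.0 and 28.1 CPM in CD206pos libraries, against 58.2, 71.6 and 45.7 CPM in CD206neg libraries. The groups did not overlap, and litter 2 was the highest and litter 3 the lowest in both. Fn1 averaged 34.2 ± 5.97 CPM in CD206pos and 58.5 ± 12.96 CPM in CD206neg (SD, n = 3 each), a log2 fold change of -0.78 ± 0.24 (SE) that did not pass in edgeR (adjusted p = 0.12) and passed in DESeq2 (adjusted p = 0.027). Its levels did not peak in litter 3.

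Sparc encodes osteonectin, a collagen-binding glycoprotein made by fibroblasts, endothelium and megakaryocytes. It was at 4.52, 11.3 and 12.6 CPM in CD206pos libraries, against 9.09, 5.85 and 34.2 CPM in CD206neg libraries. The groups overlapped, and 1 library decided the sign: the log2 fold change was -0.79 ± 0.68 (SE; adjusted p = 0.64, edgeR), and 0.34 without CD206neg replicate 3. Postn, periostin of connective tissue, had 53, 0 and 30 reads in CD206pos libraries, against 32, 0 and 97 in CD206neg libraries, with no read in either library of litter 2.

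**Figure D3:**
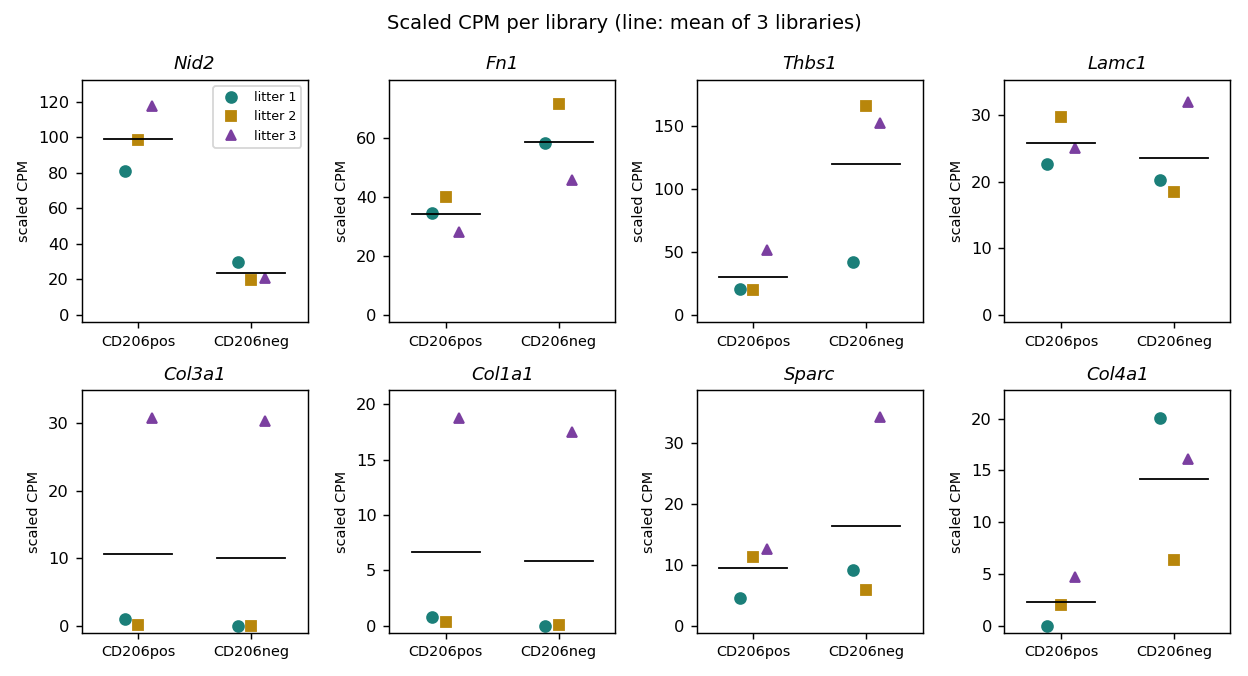
Scaled CPM (vertical axes) of 8 genes in each library, CD206pos left and CD206neg right in each panel, with the litter as colour and marker and the mean of 3 libraries as a line. Nid2 is apart between the populations, Fn1 keeps the order of litters in both, and Col3a1 and Col1a1 are high in litter 3 of both populations and near 0 in litters 1 and 2.

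The fibrillar collagens split by litter. Col3a1, the chain of type III collagen (ENSMUSG00000026043.18; chromosome 1, 45311538 to 45349706 on the plus strand of GRCm38), had levels of 0.978, 0.0573 and 30.8 CPM in the CD206pos libraries of litters 1, 2 and 3, against 0, 0 and 30.3 CPM in the CD206neg libraries. Col1a1, the alpha 1 chain of type I collagen, was at 0.795, 0.344 and 18.7 CPM in CD206pos libraries, against 0, 0.0579 and 17.5 CPM in CD206neg libraries. In both genes the litter 3 libraries of the 2 populations had like levels, and the other 4 libraries were under 1 CPM. Litter 3 held 1070 of the reads of Col3a1, against 17 in the other 4 libraries, and 634 of those of Col1a1, against 20. The log2 fold changes were 0.07 ± 2.12 (SE) for Col3a1 and 0.18 ± 1.94 (SE) for Col1a1, with adjusted p values of 0.99 and 0.98 (edgeR) and the wide standard errors leave a difference of several fold in either direction undetectable with these libraries. Without CD206pos replicate 3 these values were -4.32 and -3.38, with adjusted p values of 0.54 and 0.60 (edgeR). Without CD206neg replicate 3 they were 10.53 and 7.55, with adjusted p values of 0.23 and 0.18 (edgeR). With library totals as the only scaling the Col3a1 value was -0.05.

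Col1a2, the alpha 2 chain that pairs with Col1a1, was at 0, 0.115 and 6.94 CPM in CD206pos libraries, against 2.12, 0 and 13.9 CPM in CD206neg libraries. It was highest in litter 3 in each population, with 39 reads also in the CD206neg library of litter 1, where Col1a1 had none. Its log2 fold change was -1.18 ± 1.96 (SE; adjusted p = 0.84, edgeR). Col5a1 and Col5a2 encode type V collagen, which sets the diameter of collagen fibres, and both were below the filter. Col5a2 had 0, 0 and 139 reads in CD206pos libraries, against 2, 0 and 89 in CD206neg libraries. Col5a1 had no read in any CD206pos library, against 0, 0 and 75 reads in the CD206neg libraries, so that its reads came from 1 library.

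Summed over the 5 fibrillar collagens, litter 3 had 64.5 CPM in CD206pos and 71.0 CPM in CD206neg. The sums for litters 1 and 2 were 1.77 and 0.516 CPM in CD206pos and 2.23 and 0.0579 CPM in CD206neg. Collagen VI, a beaded filament around cells of connective tissue, was detected by Col6a1 alone, with 0, 0 and 41 reads in CD206pos libraries, against 0, 0 and 35 in CD206neg libraries.

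The proteoglycans and elastic fibre genes were low. Vcan, the large hyaluronan-binding proteoglycan versican, was at 2.26, 0 and 3.07 CPM in CD206pos libraries, against 0, 2.61 and 3.95 CPM in CD206neg libraries, with overlapping groups. Lum, encoding lumican, had 12 reads in all, 10 of them in the CD206neg library of litter 3. Fbln1, encoding fibulin 1 of basement membranes and elastic fibres, was present in every library, at 3.55, 2.35 and 3.82 CPM in CD206pos libraries, against 11.7, 4.11 and 14.9 CPM in CD206neg libraries. The groups did not overlap for Fbln1, and its log2 fold change of -1.66 ± 0.56 (SE) did not pass in edgeR (adjusted p = 0.16) and passed in DESeq2 (adjusted p = 0.046). The fibrillin genes Fbn1 and Fbn2, whose products form microfibrils, had 43 and 171 reads in the libraries of litter 3 and 4 reads each in the other 4 libraries. Lox, the crosslinking enzyme lysyl oxidase, had 4 reads, all in the CD206pos library of litter 3.

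The contractile genes encode parts of the smooth muscle apparatus. Acta2, smooth muscle actin, was at 1.53, 2.75 and 12.4 CPM in CD206pos libraries, against 9.80, 1.68 and 15.8 CPM in CD206neg libraries. Myl9, a regulatory myosin light chain, was at 3.24, 0.802 and 6.94 CPM in CD206pos libraries, against 4.52, 2.26 and 13.6 CPM in CD206neg libraries. Both were highest in litter 3 in each population and lowest or next to lowest in litter 2, with overlapping groups. Their log2 fold changes were -0.71 ± 0.93 (SE; adjusted p = 0.79) and -0.89 ± 0.88 (SE; adjusted p = 0.70) in edgeR. Tagln, encoding transgelin, had 7 reads in all, and 67.9% of its exon bases lie under exons of other genes.

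The mesenchymal receptors and transcription factors were scarce. Pdgfrb, the receptor of pericytes, had 5, 0 and 41 reads in CD206pos libraries, against 19, 153 and 41 in CD206neg libraries, so that its highest library was of litter 2. Pdgfra, the receptor of fibroblast precursors, had 0, 23 and 0 reads in CD206pos libraries, against 0, 1 and 128 in CD206neg libraries. The transcription factor genes Prrx1, Meox1, Twist1 and Tbx18, which mark limb and trunk mesenchyme, somites and the coat of organs, were all below the filter. Prrx1 had 1, 1 and 29 reads in CD206pos libraries, against 1, 1 and 52 in CD206neg libraries, and Meox1 had 0, 0 and 18, against 0, 0 and 32. Their summed level was 2.78 CPM in the CD206pos library of litter 3 and 5.02 CPM in the CD206neg library of litter 3, and under 0.1 CPM in the other 4 libraries. Of 24 other mesenchymal markers with a read, 16 (66.7%) were highest in a litter 3 library, and 9 (37.5%) had litter 3 highest in both populations. Over all genes tested these shares were 33.1% and 14.5%, though the 24 include genes below the filter. The 27 listed without the widely expressed Vim summed to 3.67, 12.3 and 30.7 CPM in CD206pos libraries, against 8.11, 11.9 and 70.9 CPM in CD206neg libraries. Of these markers 7, 13 and 19 had a read in the CD206pos libraries, against 8, 8 and 19 in the CD206neg libraries, and 4 had none in any. Cxcl12, a chemokine of stromal cells named after its values were seen, held 28.5 of the 70.9 CPM in the CD206neg library of litter 3. It was at 0, 3.78 and 8.74 CPM in the CD206pos libraries of litters 1, 2 and 3, and at 0 in the CD206neg libraries of litters 1 and 2. The part of these markers in the collagen values of litter 3 was not tested.

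**Figure D4:**
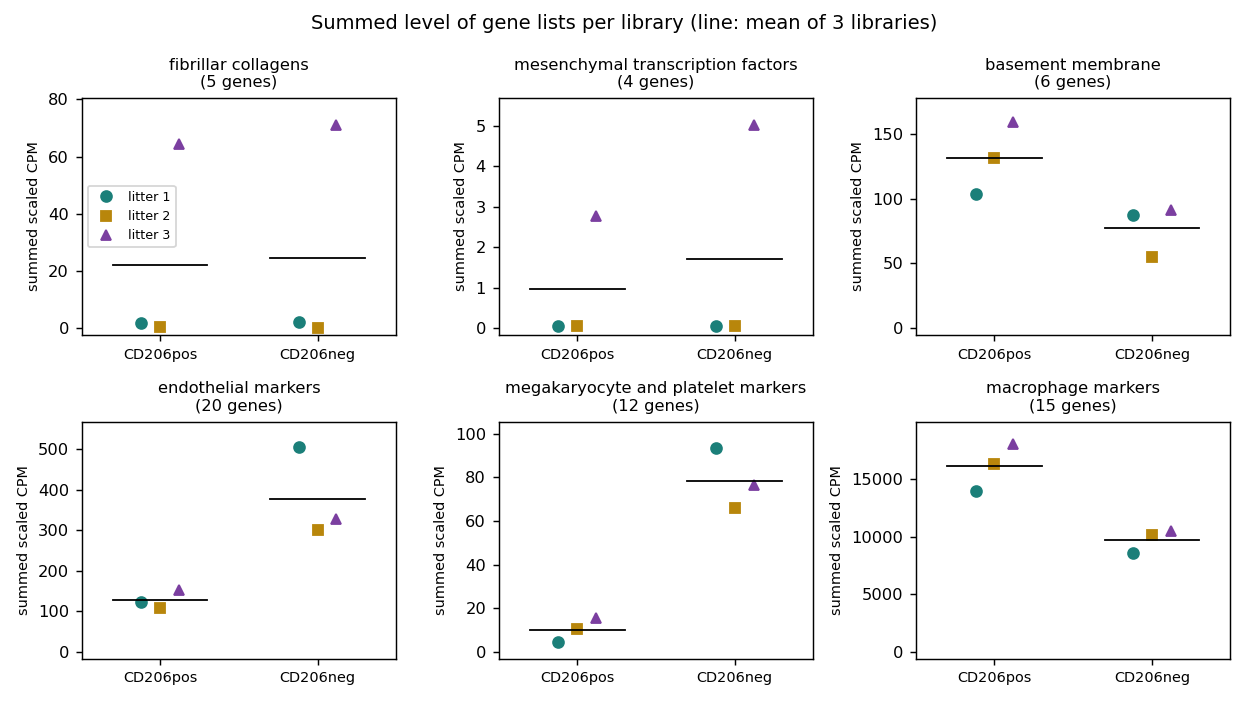
Summed scaled CPM (vertical axes) of 6 gene lists in each library, CD206pos left and CD206neg right in each panel, with the litter as colour and marker and the mean as a line. The sums of fibrillar collagens and of mesenchymal transcription factors are high in litter 3 of both populations, while the sums of endothelial and of megakaryocyte markers are lower in every CD206pos library than in any CD206neg library.

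Spread over libraries differed widely among the 34 genes. Reads were present in all 6 libraries for 9 of them (Nid2, Lamc1, Fn1, Thbs1, Sparc, Fbln1, Acta2, Myl9 and Prrx1), and 6 had reads in litter 3 alone. The highest library stood 1.74 times above the lowest for Lamc1, 2.55 times for Fn1 and 5.92 times for Nid2. It stood 8.38 times above for Thbs1, 16.9 times for Myl9 and 53.8 times for Prrx1. The biological coefficient of variation, edgeR's estimate of the spread between libraries of a group beyond counting error, was 0.215 for Nid2, 0.223 for Fn1 and 0.268 for Lamc1. These values lay just under the trend of all tested genes at like levels, which was 0.223, 0.243 and 0.299 at those 3 genes. For Col3a1 the coefficient was 1.89 where the trend was 0.436, and for Col1a1 1.60 where the trend was 0.558. Of the 18 members tested, 14 lay above the trend (77.8%) and 9 above 1.5 times the trend (50.0%), against 34.6% and 4.13% of all genes tested. Thbs1 belonged to those 9 as well, at 0.446 where the trend was 0.210.

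**Figure D5:**
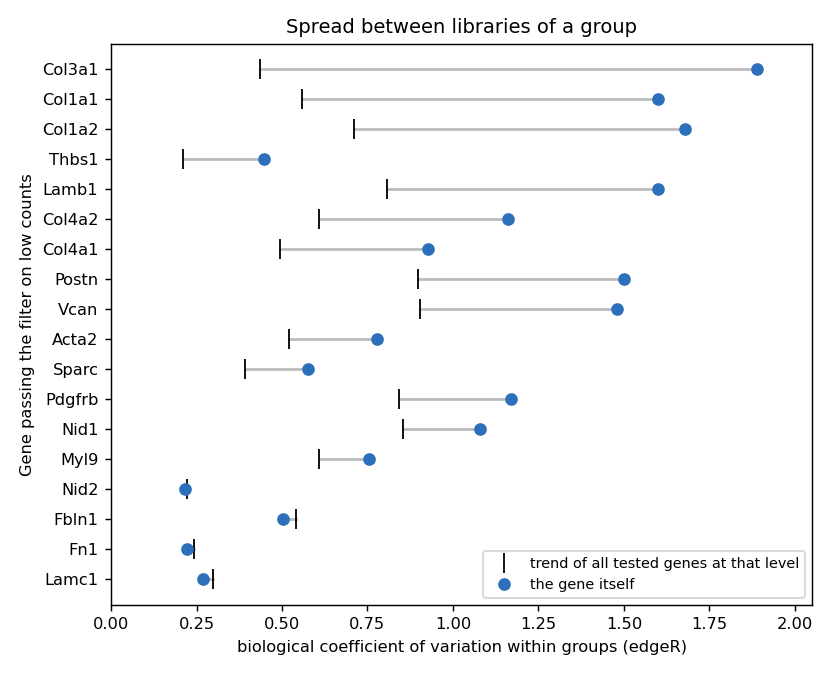
Biological coefficient of variation within groups (horizontal axis) of the 18 genes that passed the filter (points), beside the trend of all tested genes at the same level (ticks). Nid2, Fn1, Lamc1 and Fbln1 lie at or just under the trend, and Col3a1, Col1a1 and Col1a2 lie farthest above it.

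Levels were compared between genes only per exon length, as TPM. In CD206pos Nid2 was the highest member, at 59.2 ± 12.5 TPM (SD, n = 3), and its lowest library (45.9 TPM) stood above the highest of the next gene, Thbs1 (24.8 TPM). Thbs1 averaged 14.7 TPM in CD206pos, and Acta2, Myl9, Lamc1, Fn1 and Sparc followed at 9.16 to 7.35 TPM, with overlapping libraries. In CD206neg Thbs1 was the highest, at 63.3 ± 36.4 TPM, and its libraries (21.5 to 87.9 TPM) overlapped those of the next, Myl9 at 18.6 ± 16.6 TPM. Nid2 was at 15.2 ± 3.25 TPM in CD206neg and its libraries overlapped those of Myl9, Acta2, Fn1 and Sparc. Nid2, Thbs1 and Fn1 together held 75.9%, 75.2% and 55.3% of the members' reads in the CD206pos libraries of litters 1, 2 and 3, against 57.2%, 80.9% and 46.3% in the CD206neg libraries.

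Genes that act beside the members were read from lists of their own. Of 30 enzymes and chaperones of collagen assembly 19 were tested, 1 rose, 1 fell and 17 did not pass in edgeR, with a median log2 fold change of 0.18. The counts differed by tool: DESeq2 called 6 higher and 1 lower, and limma-voom 3 higher and 1 lower. Over all genes tested edgeR called 2.97% higher and 1.9% lower, and limma-voom 4.19% and 2.23%. DESeq2 called 5.2% of its genes higher and 4.63% lower. At an unadjusted p under 0.05 in edgeR, 6 were higher and 1 was lower, against 9.53% and 8.05% of all genes tested. Every CD206pos library lay above every CD206neg library for 6 of the 19 and below for 1. Of all genes tested, 12.8% and 11.8% were so. Plod1, a lysyl hydroxylase of collagen, rose 2.38-fold, to 285 ± 36.4 CPM in CD206pos, against 120.0 ± 12.8 CPM in CD206neg (SD, n = 3 each; adjusted p = 0.0038, edgeR). Plod3, another lysyl hydroxylase that also adds sugars to collagen, fell to 46.8 CPM in CD206pos, against 94.7 CPM in CD206neg on average (adjusted p = 0.027, edgeR). Serpinh1, the collagen chaperone HSP47, had 1420, 1493 and 2387 reads in CD206pos libraries, against 306, 230 and 1216 in CD206neg libraries. It was highest in litter 3 in each population, did not overlap between the groups and did not pass (adjusted p = 0.17, edgeR). Serpinh1 was named after its values were seen.

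Of 62 further matrix genes 22 were tested, 1 rose, 2 fell and 19 did not pass in edgeR, with a median log2 fold change of 0.02. DESeq2 called 3 higher and 4 lower, and limma-voom 1 higher and none lower. For this and the lists below, edgeR called 2.97% of all genes tested higher and 1.9% lower. DESeq2 called 5.2% and 4.63%, and limma-voom 4.19% and 2.23%, while 17.6% had an unadjusted p under 0.05 in edgeR. Tgfbi, a TGF-beta-induced adhesion protein also made by macrophages, rose to 145 CPM in CD206pos, against 67.4 CPM in CD206neg on average (adjusted p = 0.025, edgeR). Col18a1, the basement membrane collagen that yields endostatin, fell to 2.21 CPM in CD206pos, against 23.1 CPM in CD206neg (adjusted p = 0.025, edgeR). Lamb3, a chain of an epithelial laminin, fell to 2 reads over the CD206pos libraries, against 154 over the CD206neg libraries (adjusted p = 0.032, edgeR). It passed the filter through the CD206neg libraries alone, so it could be called only as lower. Of the 8 skeletal muscle markers 5 had no read in any library, and Actc1 had 1, 0 and 225 reads in CD206pos libraries, against 0, 0 and 25 in CD206neg libraries. Of 17 smooth muscle and pericyte markers 10 were tested, and Cnn2, a calponin also found in leukocytes, fell to 227 CPM in CD206pos, against 356 CPM in CD206neg (adjusted p = 0.049, edgeR), while 9 did not pass. DESeq2 called 1 of the 10 higher and 1 lower, and limma-voom 1 lower. The 17 summed to 450.5 to 552.4 CPM in CD206pos libraries and 549.5 to 623.8 CPM in CD206neg libraries. Cnn2 held 63.5% of the list's mean TPM. None of the 8 other mesenchymal markers tested passed in edgeR, with 1 at an unadjusted p under 0.05, 1 called by DESeq2 and none by limma-voom. No erythroid, epithelial or neural marker tested passed in edgeR, out of 5, 4 and 2, while 3 of these had an unadjusted p under 0.05. DESeq2 called 1 erythroid marker higher and 1 lower, limma-voom called 1 erythroid marker higher, and neither called an epithelial or neural one. Their sums were 12.8 to 16.4, 2.00 to 10.9 and 46.4 to 75.2 CPM in CD206pos libraries, against 4.46 to 7.39, 12.4 to 38.7 and 43.6 to 67.7 CPM in CD206neg libraries.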

How the data were processed

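RNA was sequenced from sorted GFP+ cells of E10.5 AGM dissociated with collagenase. The authors deposited raw counts of reads per gene, made per the file headers with featureCounts 1.5.2 on exons of GENCODE vM14. The submitters' processing notes name STAR 2.3 and GRCm38. Exon length was read from the deposited length column. The number in each sample label was taken as the litter, since the design text names independent litters, but no label states it. Replicate libraries of a group differed by far more than counting noise (chi-square per degree of freedom 36.9 to 90.4).

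Counts were fitted with edgeR 4.0.16 (R 4.3.3; quasi-likelihood, robust, TMM), after filterByExpr with a minimum of 10 reads and 15 in total. A gene was called at a Benjamini-Hochberg adjusted p under 0.05 over all genes tested. Scaled CPM and length-scaled TPM were computed here from the counts. Alternatives were other scalings and filters, DESeq2 1.42.0, limma-voom (limma 3.58.1) with sample weights, no robust estimation, the replicate number as a block, and leaving out each library or litter. The edgeR steps were tested on simulated data. Beside the 34 members, the text names up to 4 called genes per other list and direction, those with the smallest p, the highest gene of marker lists where a result turns on it, and Mrc1, with exceptions stated. A result on 1 gene of these lists is not reported here. The members and all lists were chosen with earlier results of these data known.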

Additional observations from a re-analysis of the deposited data

How the results depend on the processing

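The count of genes called over all 12668 tested was 617, against 1417 with DESeq2, and 3 to 561 when a library or a litter was left out, the lowest without litter 2. It was 561, 238 and 355 without CD206pos replicates 1, 2 and 3, and 272, 190 and 319 without CD206neg replicates 1, 2 and 3. It was 307 without litter 1 and 153 without litter 3. Of the 34 members 18 were tested and 1 was called. With the stricter filter (5 CPM in 3 libraries) it was 2 of 8 tested, with DESeq2 4 of 20, and with the replicate block 2 of 18. With a library or litter left out 14 to 24 were tested and 0 to 2 called. Over all genes tested 4.87% were called, 9.83% with DESeq2, and 722 of 9527 with the stricter filter. Of the other lists 18 genes were called, against 40 with DESeq2 and 0 to 19 with a library or litter left out. Among the 18 were 7 of 15 macrophage markers tested and 4 of 17 endothelial markers tested. The cause of these differences was not tested. With the replicate number as a block the count over all genes was 703, and among the members Thbs1 alone changed its call (-1.88, adjusted p = 0.044, edgeR). Libraries with the same number deviated from their group means with correlations of 0.09, 0.04 and 0.18, and 5 of 6 libraries correlated best with their own number, a hint from the data and not from the design. The sign of 9 of 18 members turned when libraries were left out. The log2 fold changes then ran from -3.38 to 7.55 for Col1a1, -6.37 to 1.14 for Col1a2, -4.32 to 10.53 for Col3a1, -9.08 to 0.72 for Lamb1, -0.16 to 0.42 for Lamc1, -1.37 to 0.34 for Sparc, -1.65 to 0.92 for Postn, -1.09 to 0.45 for Vcan and -1.79 to 0.11 for Myl9. With library totals only, the Col3a1 value was -0.05. Scaling by library totals moved the median of all genes by -0.09. None of these 9 genes was called. Nid2 kept its direction in each alternative run. Genes with reads in litter 3 alone could not be tested, and differences among members of a few reads were not detectable at this depth.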
